A study of Mus musculus with 3 samples.

Results

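Messenger RNA of the amino acid response was compared in MC3T3-E1 cells, an established line of mouse preosteoblasts that came from skull bone (calvaria). The genes were 39 listed targets and partners of the transcription factor ATF4, including the enzymes that make serine and the cytosolic aminoacyl-tRNA synthetases. Members were chosen by gene symbol. Of the 39 genes, 38 had a probe set that carried their symbol alone, out of 18193 genes on the array in all, and Gdf15 was not analysed here. They were taken by role as 10 stress factors and stress targets, 8 amino acid and one-carbon enzymes, 4 amino acid transporters and 16 synthetases.

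Cells were grown for 3 days at 37 °C in 1 of 3 media. The treated culture had osteogenic medium with 0.6% dimethyl sulfoxide (DMSO), a second culture had osteogenic medium without DMSO, and the control had normal medium. All 3 media were MEM α with 10% fetal bovine serum, and osteogenic medium added 150 μM ascorbic acid 2-phosphate, which supplies vitamin C, and 10 mM beta-glycerophosphate, a source of phosphate. The labels give the strain as C57BL/6, and they report more alizarin red S staining of mineral with DMSO. Each medium had 1 array, so no difference could be tested and precision is limited by the number of arrays, with no measure of how cultures vary.

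ATF4 is the effector of the integrated stress response. Kinases that sense amino acid shortage, unfolded protein in the endoplasmic reticulum, heme deficit or viral RNA phosphorylate the initiation factor eIF2α, which lowers general translation and raises translation of the Atf4 mRNA. ATF4 then binds C/EBP-ATF response elements at genes for amino acid synthesis, amino acid uptake and tRNA charging. In osteoblasts ATF4 is known as a factor needed for late differentiation and for the amino acid supply of collagen synthesis.

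The response element has the core TGATGNAA. Both strands of the RefSeq promoter windows of GRCm38.p6, from 250 bases before to 50 bases after each annotated gene start, were searched for it. It was found for 9 of the 29 listed genes that had a window, or 31.0% of them, against 1219 of 27025 genes with a window (4.51%). The genes were listed as targets and partners of ATF4, so this higher share is not a result of these arrays. The 6 windows below are shown because they belong to genes that were lower in osteogenic than in normal medium by more than the spread between probe sets (defined below) and hold the core. Vldlr also meets this, and its window is not shown because its probe sets differed in the size of the change. The core is in capitals and reads TTNCATCA where it lies on the opposite strand. The stretches are chr2:152344011-152344310 (minus strand) for Trib3, chr2:119350992-119351291 (plus) for Chac1, chr6:7693160-7693459 (minus) for Asns, chr8:111033592-111033891 (plus) for Aars, chr6:55037751-55038050 (plus) for Gars and chr13:49681880-49682179 (plus) for Iars.
Trib3: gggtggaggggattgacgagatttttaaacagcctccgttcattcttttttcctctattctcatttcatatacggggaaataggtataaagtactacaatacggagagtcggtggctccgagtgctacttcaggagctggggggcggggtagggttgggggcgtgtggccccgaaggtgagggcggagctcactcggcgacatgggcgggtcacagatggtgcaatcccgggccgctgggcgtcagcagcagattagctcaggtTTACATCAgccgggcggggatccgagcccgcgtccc
Chac1: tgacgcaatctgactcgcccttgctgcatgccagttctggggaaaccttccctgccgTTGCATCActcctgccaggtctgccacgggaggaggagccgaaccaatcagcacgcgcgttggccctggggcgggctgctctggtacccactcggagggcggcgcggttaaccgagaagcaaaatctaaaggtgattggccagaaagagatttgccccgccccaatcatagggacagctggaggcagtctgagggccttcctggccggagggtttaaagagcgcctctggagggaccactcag
Asns: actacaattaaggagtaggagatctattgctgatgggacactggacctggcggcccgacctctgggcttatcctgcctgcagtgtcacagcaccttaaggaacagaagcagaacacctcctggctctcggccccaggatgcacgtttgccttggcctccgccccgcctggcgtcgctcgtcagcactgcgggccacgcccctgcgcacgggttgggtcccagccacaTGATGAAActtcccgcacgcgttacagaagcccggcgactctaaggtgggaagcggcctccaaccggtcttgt
Aars: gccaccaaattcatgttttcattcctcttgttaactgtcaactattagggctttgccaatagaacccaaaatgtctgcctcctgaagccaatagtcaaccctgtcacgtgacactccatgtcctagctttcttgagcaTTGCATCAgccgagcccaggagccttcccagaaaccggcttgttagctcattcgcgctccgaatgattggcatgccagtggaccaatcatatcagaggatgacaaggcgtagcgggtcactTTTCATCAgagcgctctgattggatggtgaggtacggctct
Gars: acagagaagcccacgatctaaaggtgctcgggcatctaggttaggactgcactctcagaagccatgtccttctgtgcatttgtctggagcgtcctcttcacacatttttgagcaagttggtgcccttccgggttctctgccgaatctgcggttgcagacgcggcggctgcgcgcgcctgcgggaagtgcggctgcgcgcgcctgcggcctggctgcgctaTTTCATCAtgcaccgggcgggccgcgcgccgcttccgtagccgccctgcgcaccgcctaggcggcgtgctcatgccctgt
Iars: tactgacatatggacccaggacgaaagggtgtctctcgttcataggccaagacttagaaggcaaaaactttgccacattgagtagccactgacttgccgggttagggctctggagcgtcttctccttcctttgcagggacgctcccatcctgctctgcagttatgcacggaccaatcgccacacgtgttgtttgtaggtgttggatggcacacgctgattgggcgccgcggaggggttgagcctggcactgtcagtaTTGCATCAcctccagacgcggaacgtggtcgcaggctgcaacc

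In Asns the match began 23 bases upstream of the gene start and in Gars 30 bases upstream. Aars held 2 matches, the first of them 112 bases upstream, and that of Chac1 lay 193 bases upstream. Atf3, Slc7a11 and Vldlr also held the core, and Slc7a11 held it 2 times. Of the 4 genes that fell at least 2-fold between osteogenic and normal medium (described below), only Trib3 held it. The windows of Atf5 and Ddit3 did not hold it, and Aldh1l2 had no window. A match of letters is a description and does not show that ATF4 was bound there.

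Values are the deposited log2 expression values, and a change is the difference between the log2 values of 2 arrays. A gene is said to have fallen or risen when it changed at least 2-fold. Values under 3.54, the 50th percentile of all probe sets, were raised to that floor. Of the 38 genes, 36 were above it on at least 1 array, and the transporters Slc7a3 and Slc7a11 were below it on all 3. Repeat measurement came only from different probe sets of a gene. Their changes differed with an SD of 0.19 between osteogenic and normal medium and 0.15 between osteogenic medium with and without DMSO, over 5183 genes. A gene is called lower or higher beyond probe set noise when its change exceeds that SD.

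As background to the results, the 3 arrays had 22437 to 22539 probe sets above the floor and correlated at Pearson r of 0.996 to 0.998. The 18 probe sets of hybridisation spikes, which are meant to be added in equal amount to each sample, had a median change of 0.10 between osteogenic and normal medium. They ranged from 0.00 to 0.29. The 3′ minus 5′ signal of Actb was 0.18 in osteogenic medium with DMSO, 0.20 in osteogenic medium and 0.27 in normal medium. The osteoblast genes Sp7, Alpl, Ibsp and Col1a1 were above the floor on every array, and Runx2 and Bglap were not analysed here. Of 15 measured markers of other cell types, 4 were above it on every array. Ptprc, Cd68, Pecam1, Cdh5, Adipoq and Myod1 were below it on every array, while Col2a1 and Sox9 of cartilage, Csf1r of macrophages and Acta1 of muscle were above it. Between osteogenic and normal medium Col2a1 differed by 0.85, Csf1r by -0.25, Sox9 by 0.00 and Acta1 by 0.00, and their part in the results below was not tested. Ibsp differed by 2.18, Alpl by 1.70, Sp7 by 0.88 and Col1a1 by 0.04 between osteogenic and normal medium. Ibsp, Alpl and Sp7 thus moved in the opposite direction to the amino acid response, while Col1a1 differed little. Their part in the result was not tested. In such bulk RNA, fewer cells with a transcript and less of it per cell cannot be told apart.

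Osteogenic medium was compared with normal medium to ask how the mRNA of the listed genes differed between them. It was broadly lower in osteogenic medium. Direct effects of the added ascorbic acid 2-phosphate and beta-glycerophosphate cannot be told apart from those of differentiation. Trib3, Atf5, Ddit3 and Aldh1l2 fell, by 2.09-fold to 2.67-fold, all 8 enzymes were lower, and the synthetases separated into 9 that were lower and 7 that differed little. Of the 38 genes, 4 fell at least 2-fold, against 0.184% of the 11417 genes above the floor on at least 1 of the 2 arrays, and 0 rose at least 2-fold, against 0.473%. At 1.5-fold, 12 were lower, against 1.61% of genes. Beyond probe set noise, 26 were lower (13.0% of genes) and 0 higher (12.6% of genes). In any amount 30 were lower, where 38.7% of genes were. The median change was -0.43 over the 38 genes, -0.47 over the 36 of them above the floor, and 0 over all genes above the floor. For the 20 listed genes with at least 2 probe sets above the floor on every array, the 2 brightest changed in the same direction in 16 and in opposite directions in 0, and in the other 4 (Cars, Farsa, Farsb and Qars) a probe set had equal values.

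**Figure D1:**
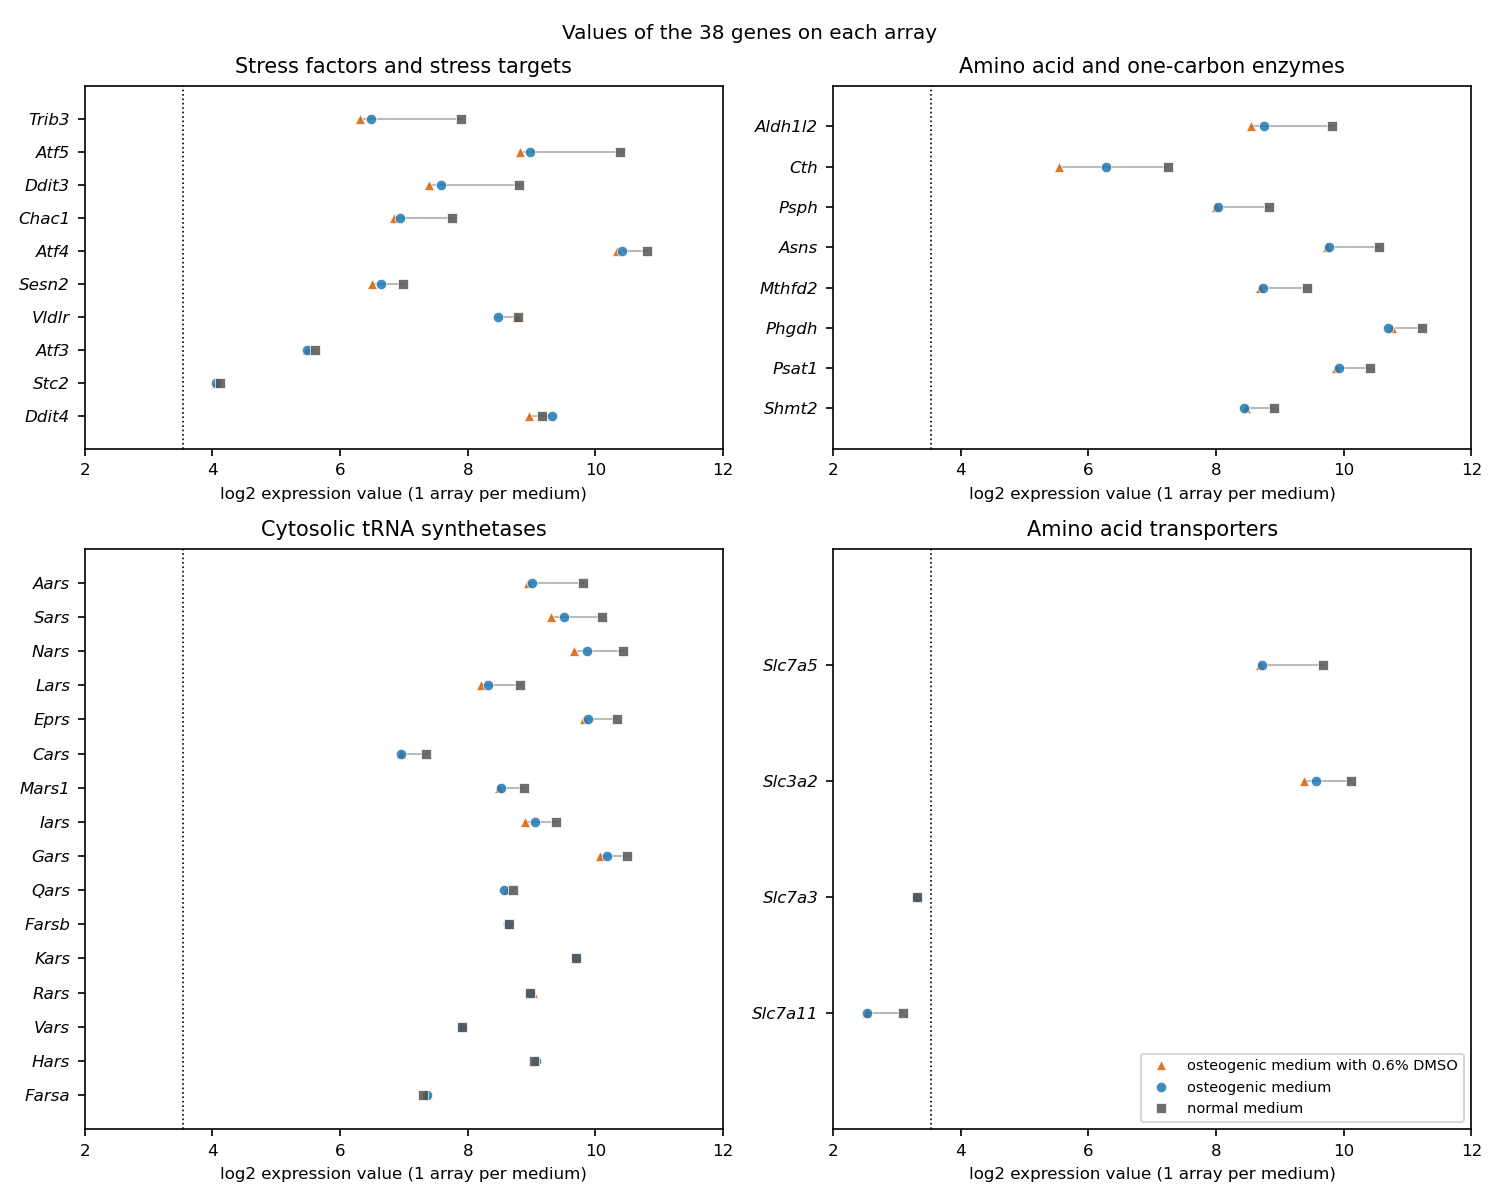
Log2 expression values of the 38 genes (x axis) on the arrays of osteogenic medium with 0.6% DMSO (triangles), osteogenic medium (circles) and normal medium (squares), 1 array each, by role, with the floor of 3.54 as a dotted line. For Trib3, Atf5, Ddit3 and the 8 enzymes, both osteogenic arrays lie left of normal medium, while Kars, Vars and Farsb nearly coincide on all 3.

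Among the stress factors, Trib3, a pseudokinase induced by ATF4 that restrains it in turn, stood at 6.32 in osteogenic medium with DMSO, 6.48 in osteogenic medium and 7.90 in normal medium. Atf5, a related factor whose own translation is raised by eIF2α phosphorylation, stood at 8.81 in osteogenic medium with DMSO, 8.98 in osteogenic medium and 10.39 in normal medium. Ddit3, which encodes the stress factor CHOP, stood at 7.40 in osteogenic medium with DMSO, 7.59 in osteogenic medium and 8.81 in normal medium. In each of the 3 genes the osteogenic arrays lay close together and well under normal medium. Trib3 differed by -1.42 between osteogenic and normal medium, a 2.67-fold fall, Atf5 by -1.40 (2.65-fold) and Ddit3 by -1.22 (2.33-fold). Counted from the lowest change of all genes above the floor, they ranked 5, 6 and 11. Atf5 has a single probe set, so its fall has no repeat measurement. A second probe set gave -1.75 for Trib3 and -0.63 for Ddit3, and with the probe sets of Ddit3 averaged its change was -0.92, under 2-fold.

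Chac1, whose product breaks down glutathione, stood at 6.94 in osteogenic medium and 7.76 in normal medium, 1.77-fold lower. Atf4 itself had 10.41 in osteogenic medium and 10.80 in normal medium, a change of -0.39. Its second probe set changed by -0.21 and another, below the floor, had equal values on all arrays. The Atf4 mRNA therefore differed less than the mRNA of Trib3, Atf5, Ddit3 and Chac1. Sesn2, a leucine sensor that inhibits the growth kinase complex mTORC1, changed by -0.34, with -0.17 in its other probe set.

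Vldlr, a lipoprotein receptor that ATF4 induces, changed by -0.31 in a probe set marked for possible cross-hybridisation and by -0.25 in the next brightest, while its other 4 probe sets changed by -0.08 to 0.00. Atf3, a stress-induced repressor, changed by -0.12 and Stc2, a secreted glycoprotein, by -0.06, both within probe set noise. Ddit4, an inhibitor of mTORC1 that also answers to glucocorticoids and hypoxia, changed by 0.16, and it was the one stress gene above 0. In all, 7 of the 10 stress genes were lower beyond probe set noise (13.0% of all genes), and the median change of the 10 was -0.37. The 7 include Sesn2 and Vldlr, for which some other probe sets changed by less than this noise.

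**Figure D2:**
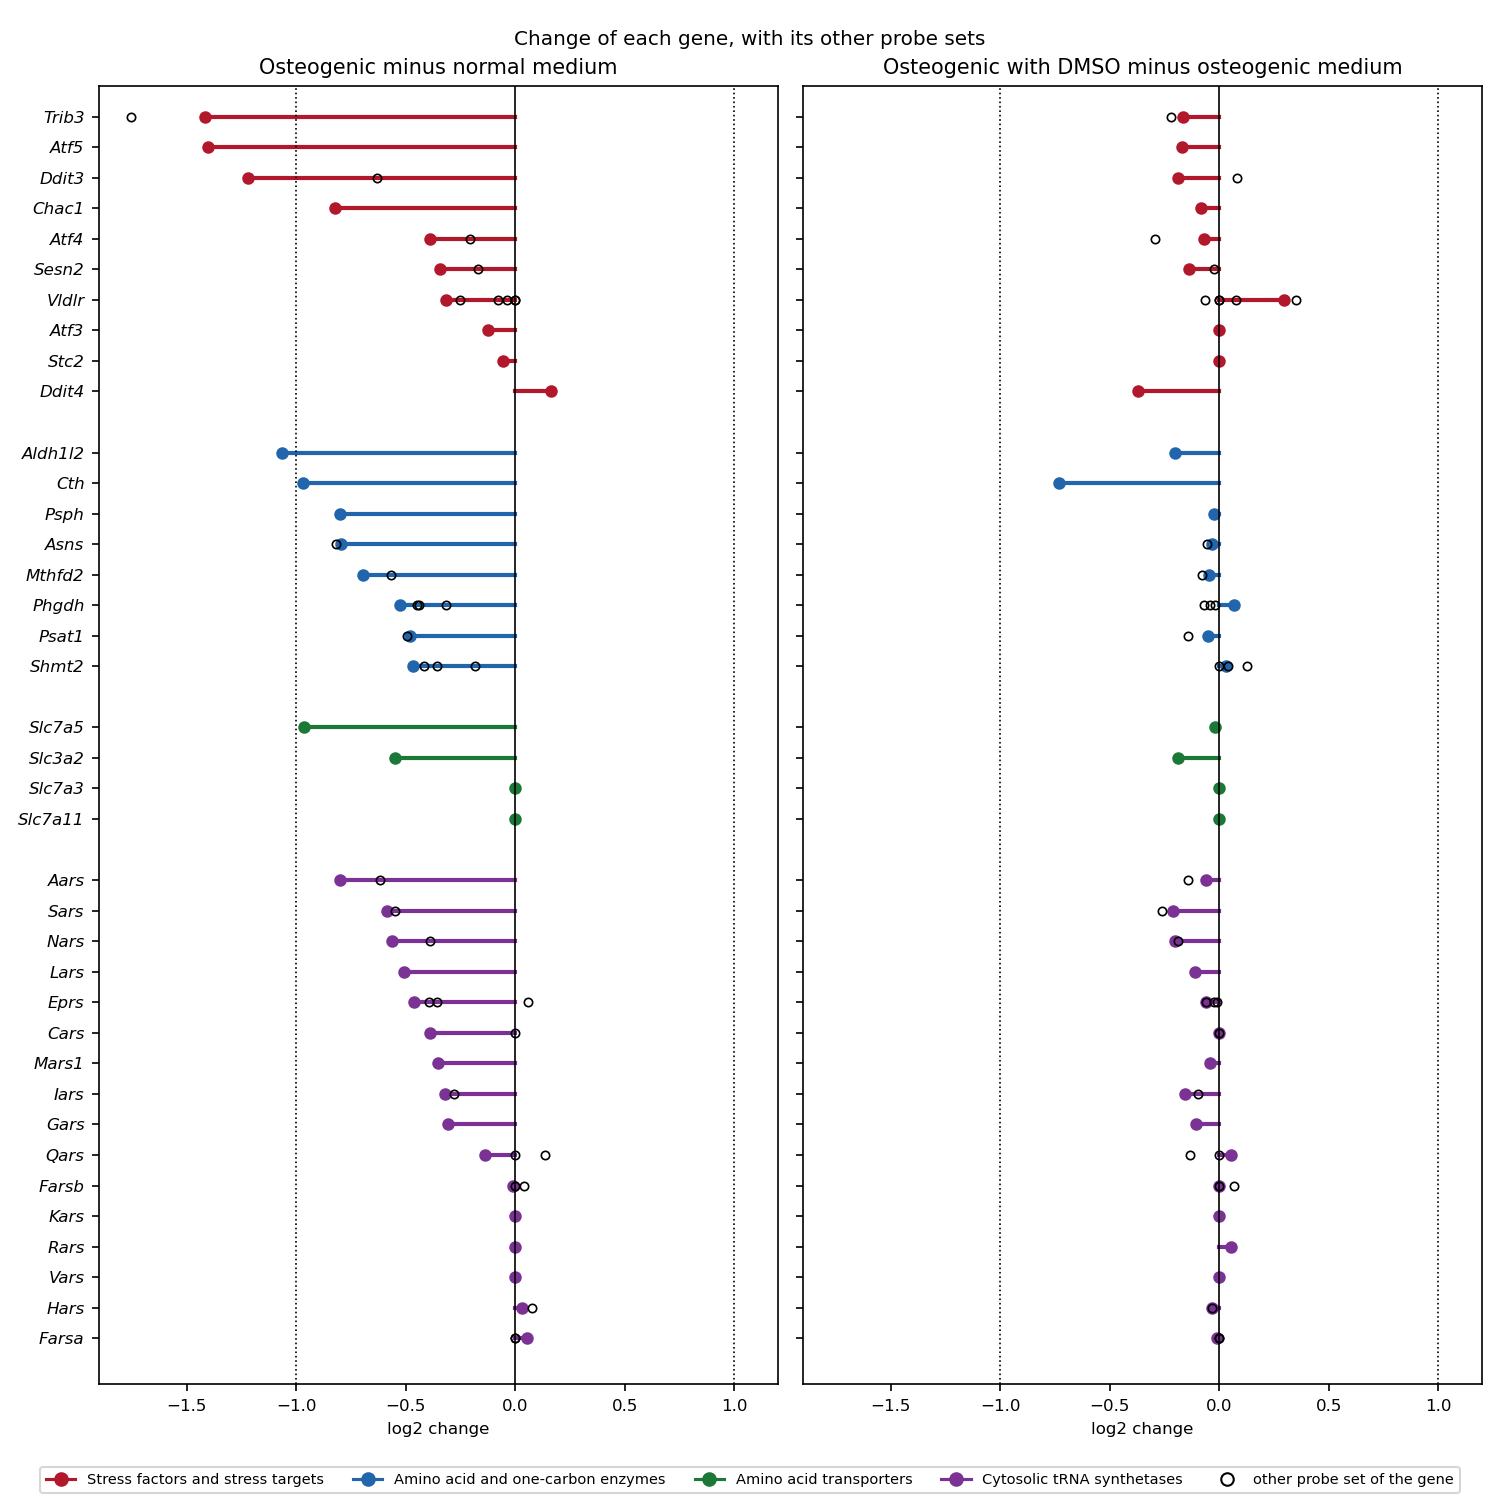
Log2 change (x axis) of each gene between osteogenic and normal medium (left) and between osteogenic medium with and without DMSO (right). Filled points and bars are the probe set with the highest mean, coloured by role, open circles are other probe sets with a mean above the floor, and dotted lines mark 2-fold. Filled points run from -1.42 to 0.16 on the left, and on the right the one change beyond 0.5 in size is Cth at -0.73.

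The serine pathway starts from the glycolytic intermediate 3-phosphoglycerate and runs through Phgdh, Psat1 and Psph in turn. Phgdh had 10.76 in osteogenic medium with DMSO, 10.70 in osteogenic medium and 11.23 in normal medium. Psat1 had 9.88 in osteogenic medium with DMSO, 9.93 in osteogenic medium and 10.41 in normal medium. Psph had 8.01 in osteogenic medium with DMSO, 8.03 in osteogenic medium and 8.83 in normal medium. All 3 steps were lower on both osteogenic arrays than in normal medium, with changes of -0.53 for Phgdh, -0.48 for Psat1 and -0.80 for Psph between osteogenic and normal medium. The other 3 probe sets of Phgdh changed by -0.45, -0.32 and -0.44 and the other one of Psat1 by -0.49.

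Serine then passes its carbon to folate in the mitochondrion through Shmt2, Mthfd2 and Aldh1l2. Aldh1l2, which oxidises 10-formyl-tetrahydrofolate, stood at 8.76 in osteogenic medium and 9.82 in normal medium, a 2.09-fold fall in its single probe set. Mthfd2 stood at 8.74 in osteogenic medium and 9.43 in normal medium, 1.62-fold lower, and its second probe set changed by -0.57. Shmt2, which splits serine into glycine and a one-carbon unit, changed by -0.47, and its other probe sets by -0.42, -0.18 and -0.36. Each of the 3 mitochondrial steps was thus lower, by unequal amounts.

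Asns, which makes asparagine from aspartate and is a classic amino acid response gene, stood at 9.77 in osteogenic medium and 10.56 in normal medium. The change was -0.80, and its second probe set gave -0.82. Cth, which makes cysteine from cystathionine, stood at 6.27 in osteogenic medium and 7.25 in normal medium, 1.96-fold lower. All 8 enzymes were lower beyond probe set noise (13.0% of all genes), from -1.06 for Aldh1l2 to -0.47 for Shmt2, with a median of -0.74.

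Slc7a5 and Slc3a2 form a single carrier of large neutral amino acids, in which the first is the light chain LAT1 and the other the heavy chain that brings it to the membrane. Slc7a5 stood at 8.69 in osteogenic medium with DMSO, 8.71 in osteogenic medium and 9.68 in normal medium. Slc3a2 stood at 9.38 in osteogenic medium with DMSO, 9.57 in osteogenic medium and 10.12 in normal medium. Both chains were lower in osteogenic than in normal medium, 1.95-fold for Slc7a5 and 1.46-fold for Slc3a2. Slc7a3, a carrier of cationic amino acids, was listed at 3.32 on all 3 arrays. Slc7a11, the cystine carrier xCT, was listed at 2.54 in osteogenic medium with DMSO, 2.54 in osteogenic medium and 3.10 in normal medium, so no change was measured for these genes.

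The synthetases attach each amino acid to its tRNA. Aars, for alanine, stood at 8.94 in osteogenic medium with DMSO, 9.00 in osteogenic medium and 9.80 in normal medium. Sars, for serine, stood at 9.30 in osteogenic medium with DMSO, 9.51 in osteogenic medium and 10.10 in normal medium. Nars, for asparagine, stood at 9.67 in osteogenic medium with DMSO, 9.87 in osteogenic medium and 10.43 in normal medium. These were the 3 lowest of the class, at -0.80, -0.59 and -0.56 between osteogenic and normal medium, and second probe sets gave -0.62, -0.55 and -0.39. Lars, for leucine, changed by -0.51, Eprs, for glutamate and proline, by -0.46, Cars, for cysteine, by -0.39, Mars1, for methionine, by -0.35, Iars, for isoleucine, by -0.32 and Gars, for glycine, by -0.31. Other probe sets of Eprs gave -0.35, -0.39 and 0.06 and that of Iars -0.28, while a dim probe set of Cars had equal values.

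The remaining 7 synthetases lay between -0.14 and 0.06. Kars, for lysine, was listed at 9.70 and Vars, for valine, at 7.91 on all 3 arrays. Rars, for arginine, had 8.97 in osteogenic medium and 8.97 in normal medium. Farsa and Farsb, the alpha and beta subunits of the enzyme for phenylalanine, changed by 0.06 and -0.01, Hars, for histidine, by 0.03 and Qars, for glutamine, by -0.14. Another probe set of Qars changed by 0.14 and one by 0.00, so Qars has no settled direction. Exactly equal values occurred on all 3 arrays for 6.76% of genes with a mean of 8 to 10 and for 11.5% of those from 6 to 8. They arose before deposit and are not a measure of precision.

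No synthetase reached 2-fold, and the class median was -0.32. The split into 9 and 7 was described after the values were seen, and it followed probe set noise of 0.19 rather than a test. It crossed the multisynthetase complex, a particle that joins several synthetases in the cytosol. Of its 7 synthetases in the list, Lars, Eprs, Mars1 and Iars were lower beyond probe set noise and Qars, Rars and Kars were not. Of the 9 outside it, 5 were lower. Of the 10 synthetases with a promoter window, all 3 with the core element (Aars, Gars, Iars) were lower, as were 3 of the 7 without it (Eprs, Mars1, Sars). Over the 27 genes with a window and a value above the floor, 7 of 8 with the core and 13 of 19 without it were lower beyond probe set noise (13.0% of all genes). The median change was -0.56 with the core, -0.46 without it and -0.51 for the 9 measured genes that had no window. Whether the core goes with the change was not tested. Slc7a11, which also holds the core, was below the floor and is not counted.

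**Figure D3:**
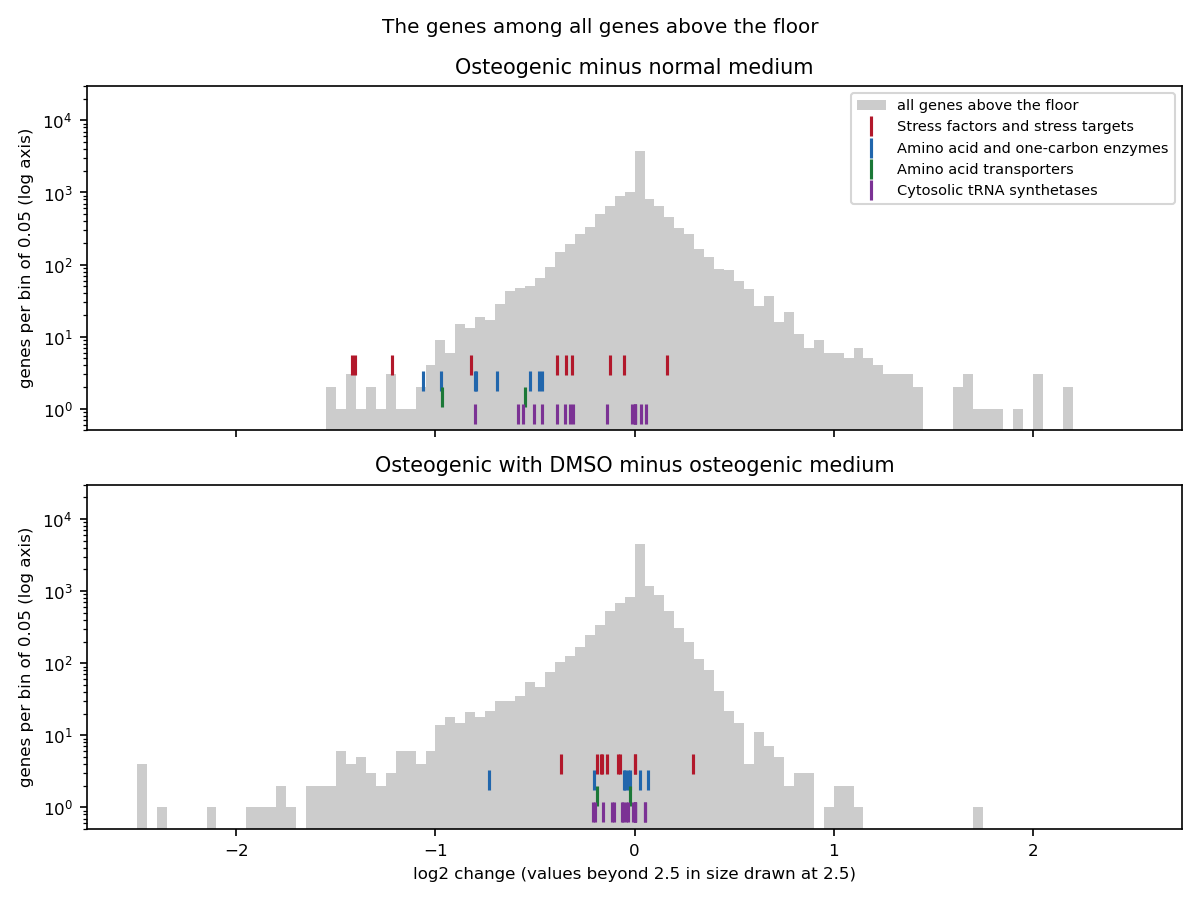
Histogram of log2 changes (x axis) of all genes above the floor, on a log axis of genes per bin of 0.05, with the listed genes above the floor as coloured ticks by role, for osteogenic minus normal medium (top) and osteogenic medium with minus without DMSO (bottom). Enzymes all lie at or below -0.47 in the top panel, and ticks other than Cth, Ddit4 and Vldlr lie between -0.21 and 0.07 in the bottom panel.

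Related lists were read in the same way. Among 17 other ATF4 targets measured, 13 were lower beyond probe set noise in osteogenic than in normal medium (13.0% of all genes), 0 were higher (12.6%), and the median was -0.42. Jdp2, a bZIP repressor, stood at 8.20 in osteogenic medium and 8.95 in normal medium, 1.68-fold lower. Pck2, the mitochondrial phosphoenolpyruvate carboxykinase, stood at 8.95 in osteogenic medium and 9.69 in normal medium, 1.67-fold lower. Slc1a5, a glutamine carrier, stood at 6.58 in osteogenic medium and 7.26 in normal medium, 1.60-fold lower. These 3 were named because their changes were the largest of the list, so their shared direction is not a separate result. None of the 17 reached 2-fold.

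Genes that control eIF2α moved little. Of 11 kinases, phosphatase subunits and eIF2B subunits, 2 were lower beyond probe set noise, against 13.0% of all genes, and the median was 0. Ppp1r15a, the phosphatase subunit GADD34 that ATF4 itself induces, changed by -0.32 and Eif2b3, a subunit of the exchange factor eIF2B, by -0.20. Of 17 genes of the ATF6 and IRE1 arms of the unfolded protein response, 2 were lower beyond probe set noise, a share near the 13.0% of all genes, and the median was -0.07. They were Ern1, which encodes the sensor IRE1α, at -0.61, and Sel1l, of endoplasmic reticulum degradation, at -0.34. The chaperone Hspa5, a standard marker of endoplasmic reticulum stress, had 11.35 in osteogenic medium and 11.42 in normal medium.

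Among the other cytosolic synthetases and scaffold genes, Tars, Yars and Wars, for threonine, tyrosine and tryptophan, changed by -0.31, -0.28 and -0.26, while the scaffold genes Aimp1, Aimp2 and Eef1e1 changed by -0.02, 0.12 and 0.07. The mitochondrial synthetases listed have genes of their own and charge tRNA inside the organelle. The list holds no such gene for glycine or lysine, so Gars and Kars were not separated by compartment. Of 15 above the floor, 2 were lower beyond probe set noise and 2 were higher, near the 13.0% and 12.6% of all genes, and the median was 0. Cars2 changed by 0.32 and Ears2 by -0.25. The 16 cytosolic members had a median of -0.32 beside it. The mitochondrial genes were generally dimmer, and Fars2, Iars2, Pars2, Vars2 and Wars2 had equal values on all 3 arrays. Equal values between osteogenic and normal medium were more common among dim genes. They made up 37.4% at a mean of 4 to 6, 19.3% at 6 to 8 and 12.1% at 8 to 10. Their part in the medians was not tested. With 1 array per medium the difference between the lists could not be tested.

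**Figure D4:**
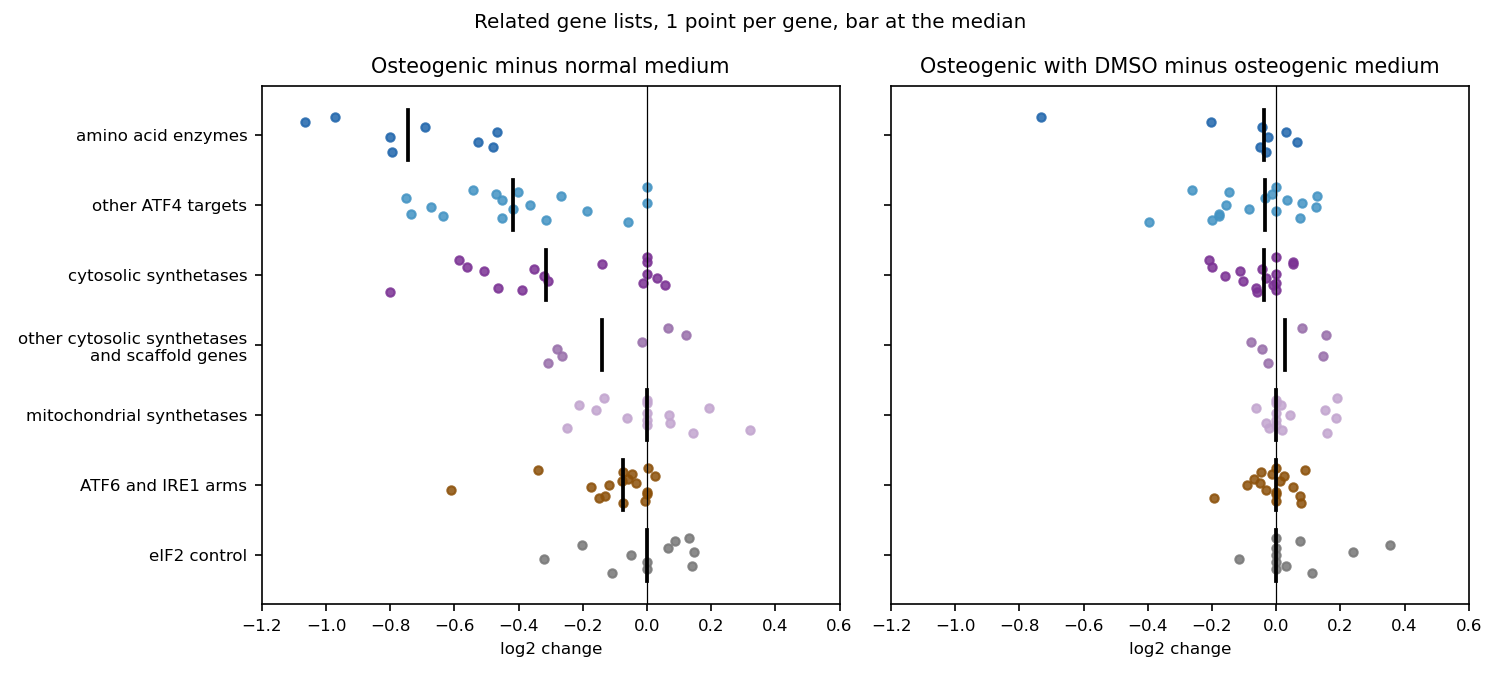
Log2 change (x axis) of genes above the floor in 7 lists, 1 point per gene with a bar at the median, between osteogenic and normal medium (left) and between osteogenic medium with and without DMSO (right). On the left, enzymes, other ATF4 targets and cytosolic synthetases have medians of -0.74, -0.42 and -0.32, and mitochondrial synthetases and eIF2 control have medians of 0.

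Osteogenic medium with DMSO was compared with osteogenic medium alone to ask what the solvent changed in this response. Most genes stayed near the level of osteogenic medium. Of the 38, 0 fell at least 2-fold, against 0.552% of 11423 genes, 0 rose, against 0.0525%, and 1 was lower by 1.5-fold, against 2.12%. Beyond probe set noise, 10 were lower, against 12.5% of genes, and 1 was higher, against 11.8%. The median change was -0.04 over the 38 genes, -0.05 over the 36 of them above the floor, and 0 over all genes above the floor.

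The largest change among the 38 was that of Cth, the 1 gene lower by 1.5-fold, a count near the 2.12% share of all genes. Cth had 5.54 in osteogenic medium with DMSO and 6.27 in osteogenic medium, a change of -0.73 or 1.66-fold, on top of its difference from normal medium. It ranked 155 from the lowest of all genes above the floor, and it has a single probe set. Ddit4 had 8.96 in osteogenic medium with DMSO and 9.33 in osteogenic medium, so it lay lower with DMSO by 1.29-fold. Vldlr had 8.77 in osteogenic medium with DMSO and 8.47 in osteogenic medium, and was the one gene higher beyond probe set noise. Its second probe set changed by 0.35 and the other 4 by -0.07 to 0.08. With probe sets of suffix _s, _x or _a left out, its change was 0.

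The other 8 genes lower beyond probe set noise were small changes of genes already lower in osteogenic medium. Sars changed by -0.21, Aldh1l2 by -0.20, Nars by -0.20, Slc3a2 by -0.19, Ddit3 by -0.19, Atf5 by -0.17, Trib3 by -0.16 and Iars by -0.16. Second probe sets gave -0.26 for Sars, -0.19 for Nars, -0.22 for Trib3 and -0.10 for Iars, and 0.08 for Ddit3, which therefore has no settled direction here. Atf4 changed by -0.07 in its brightest probe set and by -0.29 in the second.

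Asns, Psph, Psat1, Mthfd2, Phgdh and Shmt2 lay between -0.05 and 0.07 with DMSO on the log2 scale, so among the serine and folate genes the change beyond probe set noise was that of Aldh1l2. Slc7a5 changed by -0.02. By role, the medians were -0.11 for stress genes, -0.04 for enzymes and -0.04 for synthetases. The array of osteogenic medium without DMSO enters both comparisons with opposite sign, so their values are set side by side and not related to each other. Among the other ATF4 targets, Cebpb, a bZIP partner of ATF4, was at 9.43 in osteogenic medium with DMSO and 9.82 in osteogenic medium, a change of -0.39, and the list's median was -0.04. Of the 11 genes of eIF2 control, 2 were higher beyond probe set noise, against 11.8% of all genes, and 0 lower, against 12.5%. The median was 0. Eif2b3 changed by 0.36 and Eif2b1, another eIF2B subunit, by 0.24, each in a single probe set.

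Osteogenic medium with DMSO against normal medium adds up both steps. Of the 38 genes, 5 fell at least 2-fold, against 1.34% of 11422 genes, and 15 were lower by 1.5-fold, against 4.19%. Cth, the lowest of the 38, stood at 5.54 in osteogenic medium with DMSO and 7.25 in normal medium, 3.25-fold lower. Trib3 was 2.99-fold lower, Atf5 2.97-fold, Ddit3 2.65-fold and Aldh1l2 2.41-fold. The median change was -0.47, with -0.78 for the enzymes, -0.47 for the stress genes and -0.39 for the synthetases. Vldlr, at -0.02, lay near its level of normal medium, while Kars, Vars and Hars had a change of 0.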

How the data were processed

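The authors deposited 1 table of log2 values for 45101 probe sets on 3 Affymetrix mouse genome arrays. The log2 scale was read from the range of 0.65 to 13.4, and how they were summarised and normalized is not given in the sources used here. Since the arrays have nearly equal medians (3.54, 3.57 and 3.54 in osteogenic medium with DMSO, osteogenic medium and normal medium), a change in total RNA would not be seen. The 34945 probe sets with 1 symbol in the platform annotation were used, with the brightest by mean standing for each of 18193 genes. Values were raised to a floor at the 50th percentile. The genes, lists and rules were chosen with earlier results of these data known, and the threshold from probe set spread was set after the values were seen. All listed genes are named, and up to 3 per related list with the largest change in either comparison, while Cebpb, Hspa5, Aimp1, Aimp2 and Eef1e1 were named after their values were seen. With 1 array per group there was no test.

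Alternatives were no floor, the 60th percentile, all probe sets averaged, probe sets without the suffix _s, _x or _a, quantile and cyclic loess normalization, equal values left out, 1.5-fold and spike scaling. Promoter windows are from RefSeq (GRCm38.p6). The calling of 2-fold changes was run on simulated data with planted changes, which checks the code and not the precision of these arrays. Analyses used Python 3.11.15, numpy 2.4.6, pandas 2.3.3, matplotlib 3.10.9, R 4.3.3 and limma 3.58.1.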

Additional observations from a re-analysis of the deposited data

How the results depend on the processing

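No paired analysis was possible because each medium had 1 array, and for the same reason no replicate could be left out. The median change of the 38 genes between osteogenic and normal medium was -0.43 and ranged from -0.53 to -0.33 over 8 alternatives, and that of the enzymes ranged from -0.85 to -0.72. With DMSO it stayed between -0.06 and -0.01. The transporter median rests on 4 genes, 2 of them below the floor. It was -0.27 for osteogenic and -0.37 for osteogenic with DMSO against normal medium, and became -0.55 and -0.65 without a floor and -0.55 and -0.74 without equal values, since this lets the dim Slc7a11 enter or removes genes at 0. At 1.5-fold in place of 2-fold, 12, 1 and 15 genes were lower in the 3 comparisons, against 4, 0 and 5. With all probe sets averaged, Ddit3 was at -0.92 for osteogenic and -0.98 for osteogenic with DMSO against normal medium, below 2-fold. Spike scaling, chosen after seeing the data, took Cth to -1.07 and Slc7a5 to -1.07 between osteogenic and normal medium, past 2-fold, and Slc7a5 to -1.05 for osteogenic with DMSO against normal medium. Of the other values for single genes, 9 moved by more than the SD between probe sets and 883 did not. Averaging took Qars to 0.06 and Atf4 to -0.20 between osteogenic and normal medium. Leaving out probe sets of suffix _s, _x or _a took Vldlr to 0 between osteogenic and normal medium and between osteogenic medium with and without DMSO. Dim probe sets near the floor understate changes, which limits Stc2, Slc7a3 and Slc7a11.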
